A study of Mus musculus with 16 samples.

Results

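Matrix assembly and crosslinking genes were followed in the left ventricles of mice that carry a mutation of the splicing factor RBM20. The set held 8 genes named by symbol: the 5 lysyl oxidases Lox, Loxl1, Loxl2, Loxl3 and Loxl4, the elastin gene Eln, the fibronectin gene Fn1, and Cilp, the gene of cartilage intermediate layer protein. All 8 were found among the 56953 genes of the count table and all 8 passed the filter on low counts, which kept 18662 genes. Polyadenylated RNA from 16 ventricles of C57 Bl6J mice was sequenced, 1 library per mouse and 4 mice in each of 4 groups. By genotype, mice either were wild type (WT) or had the P635L mutation of RBM20 on both alleles. No group was left without virus: each mouse, controls included, was given 1e12 viral genomes of AAV9 by tail vein injection when 4 weeks old. The Ctr virus encodes Cre recombinase and green fluorescent protein behind the CAG promoter (pCAG-iCre-T2A-eGFP), and the Tnpo3 virus carried the cDNA of Tnpo3, a nuclear import receptor of serine- and arginine-rich splicing factors; the promoter of that virus is not given in the sources used here. Tissue was taken 12 weeks later, at 16 weeks of age. Males and females were used and the sex of each mouse is not given in the sources used here. Each group is named by genotype and virus, for example P635L Tnpo3, and its mice by replicate number. Each library is a separate mouse, so the tests measure the spread between mice.

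Lysyl oxidases are secreted, copper-dependent enzymes that oxidise lysine residues of collagen and elastin, and the resulting aldehydes form the crosslinks that make fibres insoluble and stiff. Fibronectin is assembled by integrins into fibrils on which collagen and other matrix proteins are laid down, and its transcript is spliced alternatively at the EDA, EDB and V (variable) regions. Elastin is the crosslinked core of elastic fibres, and Cilp is a secreted matrix protein that binds growth factors of the TGF-beta family and is made in the heart mainly by fibroblasts.

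In the deposited count table (GRCm39 per the submitters' notes) the genes lie on different chromosomes apart from Loxl1 and Cilp. Loxl1 (ENSMUSG00000032334) is at 9:58195021-58220469 on the minus strand, Loxl2 (ENSMUSG00000034205) at 14:69846517-69933283 (plus), Loxl3 (ENSMUSG00000000693) at 6:83011154-83029543 (plus), Loxl4 (ENSMUSG00000025185) at 19:42582421-42601252 (minus) and Eln (ENSMUSG00000029675) at 5:134731447-134776177 (minus). Values are sums over each gene's annotated exons.

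Library totals ran from 28493249 (WT Ctr 1) to 85922669 counts (P635L Ctr 2). In WT Ctr 2, WT Ctr 4 and WT Tnpo3 4 a single gene, ENSMUSG00000119584, held 19.96%, 21.22% and 22.65% of the counts, against at most 5.298% in the other libraries, and all 3 are WT. Xist exceeded the summed Y-linked genes in 3 WT libraries and in 0 of the 8 P635L libraries. Where a member's call in P635L Ctr against WT Ctr differed without these libraries, both values are given. Xist and Y-linked genes mark sex. By this measure sex was not balanced between the genotypes, and its part in their differences was not tested. Tnpo3 was at 41.6 to 49.3 CPM (counts scaled to a common library size) in the 8 Ctr libraries and at 231 to 722 CPM in the 8 Tnpo3 libraries, which checks the virus labels. The summed level of 6 ventricular cardiomyocyte markers was 49500 to 81600 CPM over the 16 libraries.

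Per length of annotated exons, Loxl1 was the most abundant member in WT Ctr, at 19.4 ± 6.78 RPKM (SD, n = 4), followed by Eln at 6.85 ± 1.56, Fn1 at 5.24 ± 0.576, Loxl2 at 3.57 ± 0.814, Cilp at 2.97 ± 1.51 and Loxl3 at 2.21 ± 0.627 RPKM. Lox, the founding enzyme of the family, stood at 0.557 ± 0.357 RPKM and Loxl4 at 0.291 ± 0.196 RPKM. Between neighbours in this order the libraries overlapped for Eln and Fn1, for Loxl2, Cilp and Loxl3, and for Lox and Loxl4, and they did not overlap between Loxl1 and Eln, Fn1 and Loxl2, or Loxl3 and Lox. In P635L Ctr the order changed at 1 place above all: Cilp came second at 27.4 ± 7.49 RPKM, behind Loxl1 at 36.4 ± 6.28 and above Eln at 13.7 ± 4.63 RPKM, with overlapping libraries on both sides. Loxl2, Fn1 and Loxl3 were then almost level, at 5.38 ± 1.29, 5.27 ± 0.819 and 5.04 ± 1.34 RPKM.

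Cilp was 9.26-fold higher in P635L Ctr than in WT Ctr, and Lox, Loxl1, Loxl3 and Eln were 1.88-fold to 2.84-fold higher, while Fn1 averaged 61.6 CPM in P635L Ctr and 61.2 CPM in WT Ctr. In all, 5 of the 8 members were called changed in P635L Ctr against WT Ctr (edgeR quasi-likelihood test, Benjamini-Hochberg adjusted p under 0.05 over all genes tested), and all 5 were higher. Over all genes 14.2% were called, 7.07% as higher. The members' median log2 fold change was 0.96, against -0.049 over all genes tested, and for 4 of the 8 the groups did not overlap, as for 19.1% of all genes tested. The members were chosen with earlier results of these data known, so their count is a description.

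**Figure D1:**
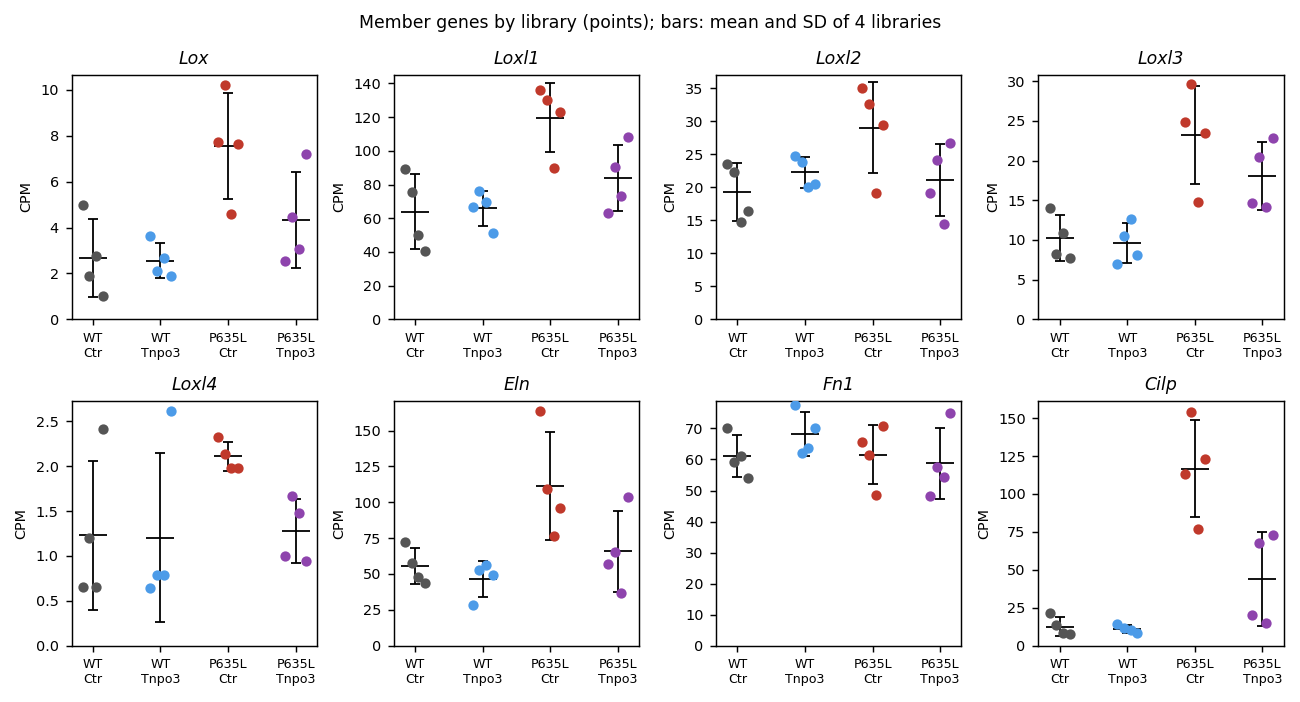
CPM of the 8 members (vertical axis of each panel, starting at 0) in the 4 groups (horizontal axis); each point is 1 library and the bars give the mean and SD of 4. Cilp lies between 76.6 and 154 CPM in P635L Ctr and at or below 21.4 CPM in both WT groups, whereas the Fn1 points of all groups overlap.

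Among the crosslinking enzymes, Loxl1, which is linked to elastic fibre maintenance, read 89.1, 75.7, 50.2 and 40.8 CPM in WT Ctr 1 to 4 and 136, 130, 89.9 and 123 CPM in P635L Ctr 1 to 4. The lowest mutant library, P635L Ctr 3, was just above the highest WT Ctr library. The log2 fold change was 0.91 (SE 0.22, adjusted p 0.0105, edgeR). Loxl3, an enzyme of the same family with scavenger receptor domains, read 14, 8.21, 10.9 and 7.68 CPM in WT Ctr and 24.8, 29.7, 14.8 and 23.5 CPM in P635L Ctr. These groups did not overlap either, and the same library, P635L Ctr 3, was the lowest of its group (log2 fold change 1.19, SE 0.24, adjusted p 0.00287, edgeR). Without the 3 libraries dominated by 1 gene the Loxl3 call did not hold (log2 fold change 0.95, adjusted p 0.0563, edgeR). In the file's annotation Loxl3 shares 535 exonic bases with Htra2 on the other strand, and whether strand was used in counting is not given in the sources used here. Htra2 itself did not pass the test (log2 fold change 0.21, adjusted p 0.239, edgeR). Lox (30 bases), Loxl2 (301), Fn1 (292) and Eln (267) also share exonic bases with a gene on the other strand.

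Lox read 4.99, 1.9, 2.74 and 1.01 CPM in WT Ctr and 7.74, 10.2, 4.58 and 7.65 CPM in P635L Ctr. WT Ctr 1 was above P635L Ctr 3, so the groups overlapped, and the log2 fold change was 1.51 (SE 0.41, adjusted p 0.0206, edgeR). The Lox call did not hold with no filter on low counts (adjusted p 0.0641), without WT Ctr 2 (0.0586), without P635L Ctr 2 (0.0644) or without the 3 libraries dominated by 1 gene (log2 fold change 1.02, adjusted p 0.143), all by edgeR. Loxl2 read 23.6, 22.4, 14.7 and 16.4 CPM in WT Ctr and 35, 32.6, 19.2 and 29.5 CPM in P635L Ctr. Its groups overlapped through P635L Ctr 3, and the log2 fold change of 0.60 (SE 0.2) missed the threshold (adjusted p 0.061, edgeR). In the authors' deposited table the same Loxl2 comparison has an adjusted p of 0.0365.

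Loxl4, the rarest of the enzymes with 18 to 203 counts in a library, read 0.651, 1.2, 0.658 and 2.41 CPM in WT Ctr and 2.33, 2.14, 1.98 and 1.98 CPM in P635L Ctr. The mutant libraries were close together, and of the WT Ctr libraries only replicate 4 reached their level. With all libraries the log2 fold change was 0.77 (SE 0.44, adjusted p 0.269, edgeR). The high WT values fell in libraries that stand apart: WT Ctr 2, WT Ctr 4 and WT Tnpo3 4, the 3 dominated by 1 gene, read 1.2, 2.41 and 2.61 CPM, and the other 5 WT libraries read 0.637 to 0.783 CPM. Without those 3 libraries the log2 fold change of Loxl4 was 1.72 (adjusted p 0.0028, edgeR), and without the 3 libraries of high Xist it was 1.38 (adjusted p 0.00646, edgeR). Both sets left out share WT Ctr 4 and WT Tnpo3 4. Without the 3 dominated libraries only WT Ctr 1 and WT Ctr 3 remain in WT Ctr. As the highest WT values were taken out, a larger difference followed from the choice and is not separate support. The part of these libraries' composition in the Loxl4 level was not tested further.

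The make-up of the family changed less than its sum. The summed level of the 5 enzymes was 26.0 ± 8.08 RPKM in WT Ctr, 27.0 ± 3.47 in WT Tnpo3, 48.9 ± 9.23 in P635L Ctr and 34.4 ± 8.21 RPKM in P635L Tnpo3 (SD, n = 4 each). Loxl1 made up 73.8% ± 3.74, 73.8% ± 2.44, 74.7% ± 1.84 and 73.7% ± 2.05 of it in the same order. The Loxl2 share was 14.0% ± 2.09 in WT Ctr and 10.9% ± 0.698 in P635L Ctr, with no overlap of the 2 groups, and the Lox share was 2.05% ± 0.909 and 3.18% ± 0.512, with overlap. The Loxl1 shares of the groups differ by less than their spread.

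Eln, the main elastic fibre substrate of these enzymes, read 72.2, 57.9, 47.6 and 44 CPM in WT Ctr and 164, 109, 76.3 and 95.9 CPM in P635L Ctr. P635L Ctr 1 was the highest of all libraries and P635L Ctr 3 again the lowest of its group, just above WT Ctr 1. The log2 fold change was 1.00 (SE 0.3, adjusted p 0.0341, edgeR). This call was the least firm of the 5: over 16 alternatives the log2 fold change stayed between 0.78 and 1.16, and the adjusted p passed 0.05 in 9 of them, reaching 0.208 without the 3 libraries dominated by 1 gene and 0.115 without the 3 of high Xist.

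Cilp read 21.4, 13.5, 8.03 and 7.62 CPM in WT Ctr and 113, 154, 76.6 and 123 CPM in P635L Ctr. The lowest mutant library stood well above the highest WT library. The log2 fold change was 3.21 (SE 0.52, adjusted p 0.000883, edgeR), which ranked Cilp at place 72 of 18662 genes by log2 fold change. Cilp and Loxl1 stayed called under all 16 alternatives, Cilp with log2 fold changes of 3.03 to 3.59.

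The gene starts on the plus strand of chromosome 9 (9:65172462-65187887 in the deposited count table, whose build the submitters' processing notes name as GRCm39). RefSeq promoters, on GRCm38.p6, were searched for 2 of the 8 members, Cilp and Loxl4. The Lox promoter was left out of the search. The Cilp sequence is shown because Cilp is the member that differed most between genotypes. It covers the 250 bases before the start, 9:65264930-65265179 (plus strand), and capitals would mark a match to a motif searched:
Cilp promoter: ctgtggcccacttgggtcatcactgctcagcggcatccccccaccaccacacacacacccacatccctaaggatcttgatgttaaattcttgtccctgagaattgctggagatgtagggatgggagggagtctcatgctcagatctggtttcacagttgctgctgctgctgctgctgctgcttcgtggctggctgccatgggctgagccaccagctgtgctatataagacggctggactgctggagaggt
Searched on both strands for 6 set patterns, it holds none. They were TGANTCA of AP-1, CAGAC of SMAD proteins, GGAATG of TEAD proteins, the E-box CACGTG, the TATA form TATAAA and the CArG box of SRF. Other forms were not searched, among them the tatataag near the window's end, so absence of a TATA box is not shown. With no match there is no overlap between motifs. Of 32851 promoter windows of this length, 6.75% hold the AP-1 motif, 42.2% the SMAD motif and 12.6% the TEAD motif. The E-box is in 6.02%, TATAAA in 12.4% and the CArG box in 1.47%. The Loxl4 window holds 1 CAGAC match and none of the other 5.

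Fn1 read 70.3, 59.2, 61.2 and 54.1 CPM in WT Ctr and 65.7, 61.5, 48.4 and 70.7 CPM in P635L Ctr. In WT Tnpo3 it read 77.4, 62, 63.6 and 70.2 CPM, and in P635L Tnpo3 48.3, 57.6, 54.4 and 75 CPM. All 4 groups overlapped. The log2 fold change of P635L Ctr against WT Ctr was 0.01 (SE 0.14, adjusted p 0.976, edgeR), and over 16 alternatives it ran from -0.06 to 0.11. Its SE was the smallest among the members, so a difference as large as that of Loxl1 lay several SE away from the estimate.

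**Figure D2:**
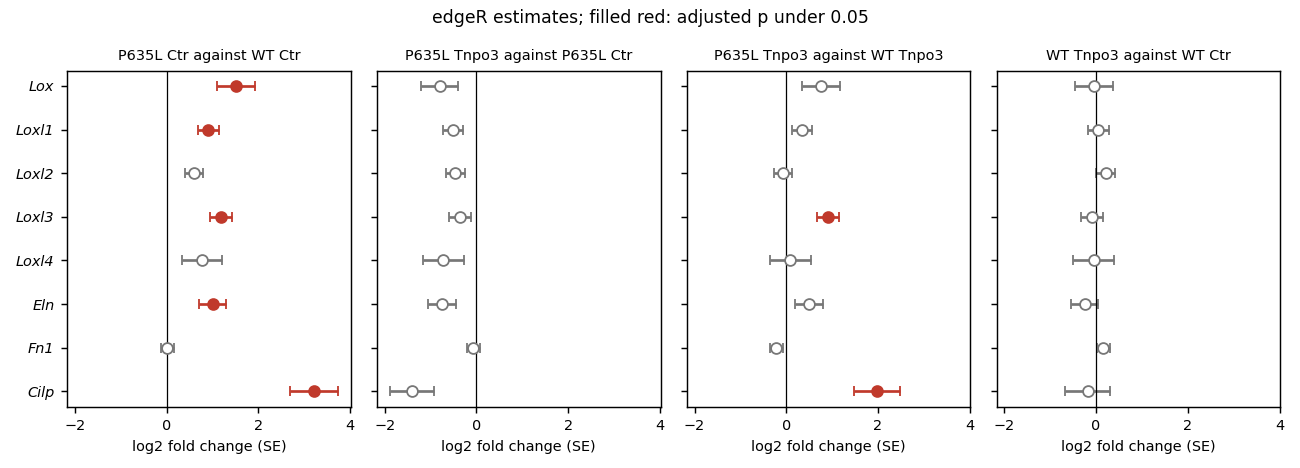
edgeR log2 fold changes (horizontal axis) of the 8 members in 4 comparisons; circles are estimates, bars are their SE, and filled red circles have an adjusted p under 0.05. Cilp, Lox, Loxl1, Loxl3 and Eln are filled in P635L Ctr against WT Ctr, Cilp and Loxl3 in P635L Tnpo3 against WT Tnpo3, and none in the other 2 panels.

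Markers of fibroblasts moved in the same comparisons. Of 8 fibroblast markers, 7 were called higher in P635L Ctr than in WT Ctr (Pdgfra 1.06, Dcn 0.87, Lum 0.80 and Mfap4 2.71 on the log2 scale, edgeR adjusted p 1.48e-05, 0.000569, 0.00369 and 2.85e-05), and their summed level was 2290 to 2760 CPM in WT Ctr and 3630 to 5050 CPM in P635L Ctr. Of 7 markers of activated fibroblasts, 5 were called higher, and the summed level was 164 to 231 CPM and 317 to 589 CPM. Of 6 endothelial and 5 smooth muscle markers, 0 were called by edgeR, and of 6 ventricular cardiomyocyte markers 3 were called lower (Myh6, Tnni3 and Myl2). In bulk tissue, fewer cells of a type and less RNA per cell cannot be told apart.

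The members were therefore also set against the mean log2 level of the 8 fibroblast markers in the same library, a scale chosen after the data were seen. The 8 markers had a median log2 fold change of 0.78 in P635L Ctr against WT Ctr (edgeR), with Mfap4, given above, far above it. A mean without Mfap4 was not computed. The marker mean itself was 1.05 higher in P635L Ctr than in WT Ctr on the log2 scale. Relative to it Cilp was 2.24 higher, with no overlap of the groups (two-sided exact permutation test over 70 assignments, unadjusted p 0.0286, the smallest possible with 4 against 4). Fn1 was lower by this measure, by a difference of -1.04, also without overlap (exact p 0.0286). Fn1 itself had an edgeR log2 fold change of 0.01. Its value here is thus the marker shift with the sign turned and not a separate result for Fn1. The differences of Lox (0.61, exact p 0.229), Loxl3 (0.14, exact p 0.543), Loxl1 (-0.09, exact p 0.629), Loxl4 (-0.09, exact p 0.886) and Eln (-0.07) came with overlapping groups. Loxl2 stood at -0.46 (exact p 0.0857). On this scale Cilp lay above the markers, and the lysyl oxidases and Eln did not separate from them at this sample size. Fn1 did not rise with the markers. The share of fibroblasts in the tissue was not measured.

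**Figure D3:**
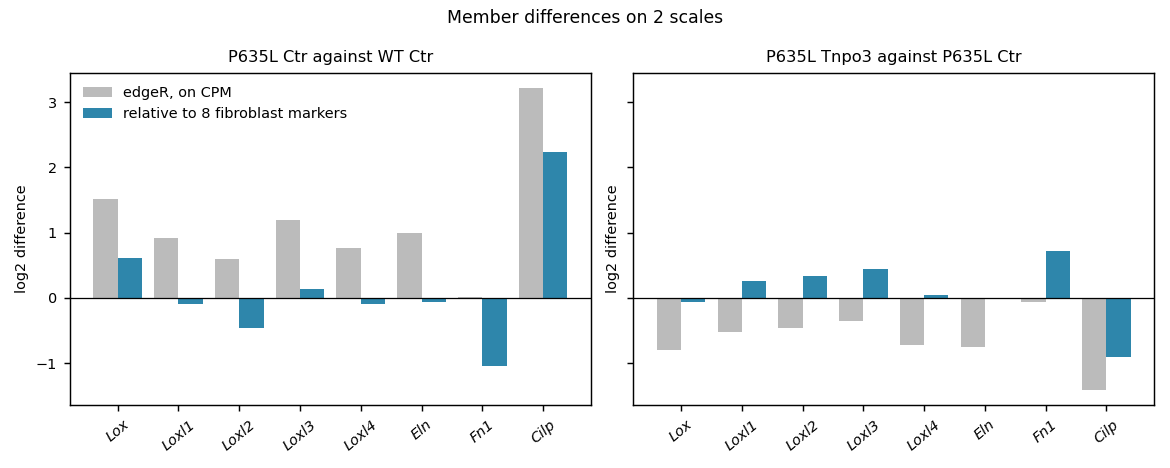
Log2 differences (vertical axis) of the 8 members in 2 comparisons, on CPM as edgeR estimates them (grey bars) and relative to the mean log2 CPM of 8 fibroblast markers in the same library (blue bars). Cilp keeps a difference of 2.24 on the second scale in P635L Ctr against WT Ctr, Fn1 goes to -1.04 and Loxl1 to -0.09.

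Genes that act with the members were counted in 5 lists, beside 14.2% of all genes called in P635L Ctr against WT Ctr. Of 14 elastic fibre assembly genes, 11 were called in P635L Ctr against WT Ctr, 10 higher and 1 lower (median log2 fold change 0.66, against -0.049 over all genes). Ltbp2, a protein of the fibrillin microfibril, rose from 4.03 to 72.2 CPM on average (log2 fold change 4.17, adjusted p 9.45e-05, edgeR). Mfap4, which binds elastin and collagen, rose from 21.3 to 140 CPM (2.71, adjusted p 2.85e-05) and Fbn2, a fibrillin, from 1.73 to 5.15 CPM (1.57, adjusted p 0.00832). Efemp1, also called fibulin-3, fell from 9.13 to 2.44 CPM (-1.91, adjusted p 0.000102, edgeR). Mfap4 is also one of the fibroblast markers above. The count of 11 fell to 7 without the 3 libraries dominated by 1 gene.

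Of 21 genes of collagen maturation and LOX activation, 10 were called, 8 higher and 2 lower, with a median of 0.11. Postn, periostin, which brings the protease that activates LOX to the matrix, rose from 38.8 to 155 CPM (log2 fold change 2.00, adjusted p 0.0107, edgeR), and Pcolce, an enhancer of procollagen C-proteinase, from 88 to 239 CPM (1.44, adjusted p 1e-06). Adamts2, a procollagen N-proteinase, rose from 31.4 to 54.9 CPM (0.81, adjusted p 0.00442). Bmp1, the protease that cleaves the LOX propeptide, passed the threshold narrowly (0.48, adjusted p 0.0468), and Tll2 of the same protease family fell from 1.59 to 0.413 CPM (-1.98, adjusted p 0.0117, edgeR). The count of 10 was 6 without the 3 libraries dominated by 1 gene, and 6 without P635L Ctr 1 or without P635L Ctr 2.

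Of 10 fibrillar collagen genes tested, of 11 listed, 4 were called and all 4 were higher (median 0.59): Col1a1 and Col1a2, the chains of type I collagen, at 0.98 and 1.05, and Col5a2 and Col5a1, of type V, at 0.80 and 0.52 (adjusted p 0.00879, 0.00296, 0.0481 and 0.0213, edgeR). That count was 1 without the 3 libraries dominated by 1 gene, and 2 without WT Ctr 3, P635L Ctr 1 or P635L Ctr 2. The fibronectin receptor and assembly list had 4 of 16 called, 2 in each direction (median -0.01), against 14.2% of all genes. Itga9 rose from 61.1 to 112 CPM (0.88, adjusted p 0.000559) and Itga5, the alpha chain of the classical fibronectin receptor, from 62.3 to 87.5 CPM (0.49, adjusted p 0.0114), whereas the proteoglycan Sdc4 fell from 26.4 to 16.5 CPM (-0.68, adjusted p 0.0105) and Itgb6 from 15.1 to 9.8 CPM (-0.62, adjusted p 0.011, edgeR). Of 6 genes of growth factors linked to Cilp, Tgfb2 rose from 10.8 to 32.7 CPM (1.60, adjusted p 2.86e-06) and Tgfb3 from 22.9 to 41.7 CPM (0.87, adjusted p 0.00225, edgeR), and Tgfb1, Igf1, Igf1r and the paralog Cilp2 did not pass the test.

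**Figure D4:**
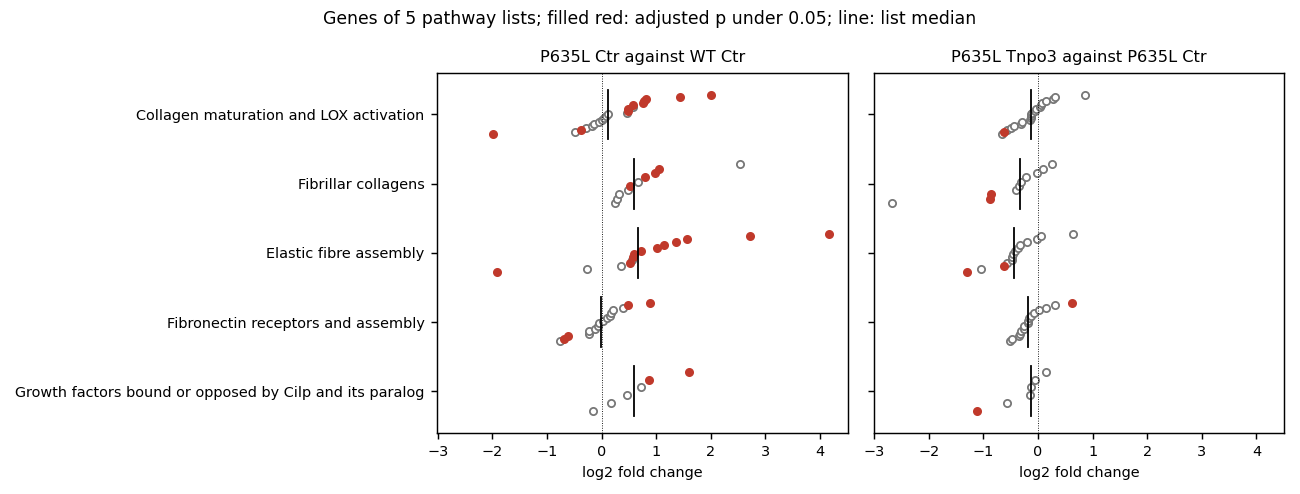
Log2 fold change (horizontal axis) of each gene in 5 pathway lists (vertical axis) for 2 comparisons; filled red points have an edgeR adjusted p under 0.05 and the black line is the list's median. The elastic fibre list has 11 filled points in P635L Ctr against WT Ctr and 2 in P635L Tnpo3 against P635L Ctr.

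The comparison of P635L Tnpo3 with P635L Ctr asks how the Tnpo3 virus acts in the mutant. All 8 members had a lower mean in P635L Tnpo3, with a median log2 fold change of -0.62 against 0.007 over all genes, and 0 of the 8 passed the test (edgeR, 3.88% of all genes called). At an unadjusted p under 0.05, 4 members passed (Cilp, Eln, Loxl1 and Loxl2), against 18.4% of all genes. Cilp read 20.3, 67.7, 14.8 and 73.2 CPM in P635L Tnpo3, all below the lowest P635L Ctr library, with a log2 fold change of -1.41 (SE 0.48, adjusted p 0.131, edgeR). Its groups did not overlap, but the 4 Tnpo3 libraries were far apart. DESeq2 gave Cilp an adjusted p of 0.0429, and over the 16 alternatives the adjusted p ran from 0.0429 to 0.294. Loxl4 read 1, 1.67, 1.48 and 0.944 CPM, again without overlap, as for 20.4% of all genes (-0.72, SE 0.44, adjusted p 0.402, edgeR), and its adjusted p was 0.0461 when only the libraries of the 2 groups were fitted.

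The other members overlapped between P635L Tnpo3 and P635L Ctr. Lox read 2.56, 4.48, 3.06 and 7.2 CPM in P635L Tnpo3 (-0.80, adjusted p 0.297), Loxl1 63.4, 90.4, 73 and 108 CPM (-0.52, adjusted p 0.217) and Eln 57.2, 65.3, 36.9 and 104 CPM (-0.75, adjusted p 0.183, edgeR). Loxl2 read 19.2, 24.2, 14.5 and 26.8 CPM (-0.46, adjusted p 0.236) and Loxl3 14.6, 20.5, 14.2 and 22.9 CPM (-0.36, adjusted p 0.453, edgeR). In 7 of the 8 members, P635L Tnpo3 2 and 4 were both above P635L Tnpo3 1 and 3, the exception being Loxl4. The summed level of the activated fibroblast markers showed the same order, at 189, 316, 179 and 529 CPM in P635L Tnpo3 1 to 4. Tnpo3 itself read 358, 722, 542 and 234 CPM in these libraries, highest in P635L Tnpo3 2 and lowest in P635L Tnpo3 4, so both libraries with high member levels lay at the ends of the Tnpo3 range. The part of these markers in the result was not tested.

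Of the fibroblast markers, 6 of 8 were called lower in P635L Tnpo3 than in P635L Ctr (edgeR), and the summed level was 2620 to 3200 CPM against 3630 to 5050 CPM. Relative to the mean of these markers, the Cilp difference was -0.91 with overlapping groups (exact p 0.143). Fn1 was 0.71 higher without overlap (two-sided exact permutation test, unadjusted p 0.0286). The marker mean differed by -0.78 on the log2 scale and Fn1 itself by -0.07 (edgeR), so the Fn1 value again follows from the markers. Loxl3 (0.44, exact p 0.0571), Loxl2 (0.33, exact p 0.0857), Loxl1 (0.25, exact p 0.114) and Loxl4 (0.04, exact p 0.886) also had positive differences on this scale, with overlapping groups, while Lox (-0.07, exact p 0.8) and Eln (-0.01, exact p 0.971) stayed slightly negative. In the pathway lists, the genes called lower were Mfap4 (-1.30, adjusted p 0.0252) and Fbln5 (-0.63, adjusted p 0.0221) of 14 elastic fibre genes, Col1a1 (-0.86, adjusted p 0.0496) and Col1a2 (-0.87, adjusted p 0.0293) of 10 fibrillar collagens, and Pcolce (-0.63, adjusted p 0.0111) of 21 collagen maturation genes, all by edgeR. Tgfb2 fell from 32.7 to 15.1 CPM (-1.12, adjusted p 0.000664, edgeR), and Sdc4, the 1 fibronectin receptor gene called of 16, rose from 16.5 to 25.5 CPM (0.63, adjusted p 0.0437, edgeR). That count of 1 was 0 in 6 of the 8 fits that left out 1 library, and it was 2 without P635L Tnpo3 4. Of the 8 fits that left out 1 library, the 6 other than those without P635L Ctr 3 or without P635L Tnpo3 4 had 0 fibrillar collagens and 0 elastic fibre genes called by edgeR.

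The mutant and WT mice given the Tnpo3 virus differed in 2 of the 8 members by edgeR, against 3.72% of all genes. Cilp read 14.1, 11.7, 10.6 and 8.06 CPM in WT Tnpo3, below every P635L Tnpo3 library (log2 fold change 1.98, SE 0.5, adjusted p 0.043). Loxl3 read 7.01, 10.5, 12.7 and 8.16 CPM in WT Tnpo3, also without overlap, as for 11.5% of all genes (0.91, SE 0.24, adjusted p 0.0444, edgeR). Both calls lay near the threshold and each was lost in 11 of 16 alternatives, with adjusted p up to 0.202 for Cilp and 0.17 for Loxl3. Against WT Ctr, P635L Tnpo3 had 0 of 8 members called (edgeR, 3.07% of all genes), and Loxl3 (0.83, adjusted p 0.0736) and Cilp (1.81, adjusted p 0.0683) were the 2 with an unadjusted p under 0.05 (18.3% of all genes). DESeq2 called both, and the authors' deposited table has adjusted p-values of 0.00745 for Loxl3 and 0.051 for Cilp in that comparison.

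In WT mice the Tnpo3 virus changed 0 of the 8 members by edgeR (0.00536% of all genes called), 0 at an unadjusted p under 0.05 (3.2% of all genes) and 0 by DESeq2. The log2 fold changes ran from -0.25 (Eln, SE 0.3) to 0.21 (Loxl2, SE 0.21). The interaction of virus and genotype was called for 0 of the 8 members (0.504% of all genes). All 8 estimates were negative, from -1.23 (Cilp, SE 0.68, adjusted p 0.489) to -0.23 (Fn1, SE 0.2, adjusted p 0.674, edgeR), and Loxl2 was the only member with an unadjusted p under 0.05 (-0.67, SE 0.29, adjusted p 0.356, edgeR), against 12.4% of all genes. DESeq2 also called 0 members. A difference of the virus effect between genotypes was therefore not shown for any member. The comparisons above share groups and are not independent of each other.

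The genes whose level followed each called member most closely were found over 16 libraries among 12392 genes. For Cilp these were Thbs4, a thrombospondin of injured muscle and tendon (Pearson r 0.989), Serpinf1 (0.974) and Mfap4 (0.971). After each group's mean was subtracted, Thbs4 stayed first for Cilp (r 0.94). Thbs4 averaged 7.9 CPM in WT Ctr, 74.5 in P635L Ctr and 23.7 in P635L Tnpo3. For Eln they were Rcn3 (r 0.943), Col5a2 (0.936) and Col16a1 (0.926), for Loxl1 Tmem45a (0.969), Vgll3 (0.952) and Slc39a6 (0.947), for Lox Dap (0.963), Srpx2 (0.959) and Akip1 (0.952), and for Loxl3 Rnf25 (0.957) and Nkd2 (0.945). These values share the group means and each library's scaling, and are given as a description. Among the members themselves Lox and Loxl1 gave r 0.91 (0.79 after subtracting the group means) and Cilp and Loxl1 0.91 (0.81), whereas Cilp and Fn1 gave 0.07 over the 16 libraries and 0.67 within groups. Loxl4 went with Lox at 0.10 over the 16 libraries and at -0.61 within groups.

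The splicing of Fn1 was read from junction counts, since RBM20 is a splicing factor and TNPO3 imports splicing factors. An inclusion level runs from 0 to 1 and is the share of transcripts that hold the exon, intron or longer exon end, corrected by the authors for length. Fn1 lies on the minus strand of chromosome 1 (1:71624679-71692359, GRCm39 in the submitters' notes). Parts of the 3 regulated regions are shown so that the measured units can be seen. They come from GENCODE M21 transcripts of Fn1 on GRCm38 and were matched to the deposited events by the length of the exon and of its neighbours, not by coordinates. All 3 are coding and have a length divisible by 3, so that each can be skipped without a shift of frame. Capitals mark TCTT, the DNA form of the UCUU motif that RBM20 binds, on the sense strand only. EDA is chr1:71603660-71603929, EDB chr1:71613763-71614035, and the stretch of V between its first and second acceptor chr1:71597673-71597747, all minus strand. That stretch is shown in place of the whole V region because it is what the choice between these acceptors adds, and it encodes the CS1 site bound by integrin alpha 4 beta 1:
Fn1 EDA: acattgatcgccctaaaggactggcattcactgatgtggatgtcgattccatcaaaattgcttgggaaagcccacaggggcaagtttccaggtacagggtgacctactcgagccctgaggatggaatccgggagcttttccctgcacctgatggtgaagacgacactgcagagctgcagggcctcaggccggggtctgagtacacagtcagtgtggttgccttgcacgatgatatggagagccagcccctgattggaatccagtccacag
Fn1 EDB: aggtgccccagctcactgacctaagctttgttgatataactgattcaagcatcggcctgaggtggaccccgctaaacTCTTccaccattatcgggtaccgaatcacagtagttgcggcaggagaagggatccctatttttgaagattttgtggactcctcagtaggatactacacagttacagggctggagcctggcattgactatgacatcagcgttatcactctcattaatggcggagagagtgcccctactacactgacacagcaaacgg
Fn1 V, first to second site: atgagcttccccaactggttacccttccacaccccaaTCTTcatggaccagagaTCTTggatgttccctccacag
EDA (270 bases) holds 0 TCTT matches, EDB (273 bases) holds 1 and the V stretch (75 bases) holds 2. Of internal exons of these lengths in protein-coding transcripts, 55.0% of 129, 60.2% of 113 and 25.2% of 1255 hold at least 1. The motif is a description of these letters and says nothing of binding.

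In the 3 rMATS tables, each against WT Ctr, the members had 24 events in P635L Ctr, 26 in P635L Tnpo3 and 20 in WT Tnpo3. Of these, 20, 22 and 17 passed a minimum of 10 junction reads, averaged over the libraries of each group. An event was called at an rMATS false discovery rate (FDR) under 0.05 with an inclusion difference of at least 0.1. By that rule 0 member events were called in P635L Ctr (2.52% of all events with enough reads), 1 in P635L Tnpo3 (2.12%) and 0 in WT Tnpo3 (0.941%). At an unadjusted rMATS p under 0.05 there were 3 in P635L Ctr (EDA and 2 events of Loxl3), 2 in P635L Tnpo3 (EDA and an Fn1 intron) and 1 in WT Tnpo3 (EDA). The share of all events at that unadjusted p was not computed, so these counts are a description only. The 3 EDA comparisons share the same WT Ctr libraries. Lox, Loxl1 and Loxl2 had no listed event. Cilp and Loxl4 had events with too few reads only.

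The EDA exon, 1:71642819-71643088 in the deposited tables, was mostly skipped. In WT Ctr its inclusion was 0.037, 0.286, 0.05 and 0.149 in the order listed; which mouse each value belongs to is not given in the sources used here. In P635L Ctr it was 0.191, 0.259, 0.28 and 0.091, in WT Tnpo3 0.294, 0.205, 0.161 and 0.267, and in P635L Tnpo3 0.263, 0.833, 0.171 and 0.091. All groups overlapped. The differences from WT Ctr were 0.075 in P635L Ctr (FDR 0.131), 0.101 in WT Tnpo3 (FDR 0.0867) and 0.209 in P635L Tnpo3 (FDR 0.264, authors' deposited rMATS tables). The last rested on 1 library with 20 inclusion and 2 skipping reads, and leaving out each library in turn moved it between 0.045 and 0.292. Between P635L Tnpo3 and P635L Ctr the difference was 0.134 (two-sided exact permutation p 0.743), and it went from -0.03 to 0.217 as each library was left out. The mean was 21.25 to 46.5 junction reads per library in the 4 groups. EDB, 1:71652922-71653194, had 2 inclusion reads in WT Ctr, 3 in P635L Ctr and 0 in both Tnpo3 groups, against 11 to 31 skipping reads per group.

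The called event was an intron of Fn1. It is the intron of the event 1:71636440-71637622 that ends at the first acceptor of the V region, and its retention was 0.152, 0.026, 0 and 0 in WT Ctr and 0.116, 0.051, 0.188 and 0.245 in P635L Tnpo3 (difference 0.105, FDR 0.000466, authors' deposited rMATS table). The groups overlapped, and the difference went from 0.074 to 0.141 as each library was left out, against the minimum of 0.1. The sums behind it were 6 intron reads and 81 spliced reads in WT Ctr and 34 and 95 in P635L Tnpo3. In P635L Ctr retention was 0.015, 0.073, 0 and 0.031 (FDR 0.549), and in WT Tnpo3 0.024, 0.107, 0.04 and 0.087 (FDR 0.37). A test over libraries of P635L Tnpo3 against WT Ctr gave an exact permutation p of 0.114, and against P635L Ctr, with a difference of 0.12, an exact permutation p of 0.0571 (0.855 after Benjamini-Hochberg adjustment over 20 member events). The smallest possible p of this test is 0.0286, so a single event could not pass after adjustment over 20. The event was called by rMATS and did not reach an unadjusted 0.05 by the permutation test over libraries.

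**Figure D5:**
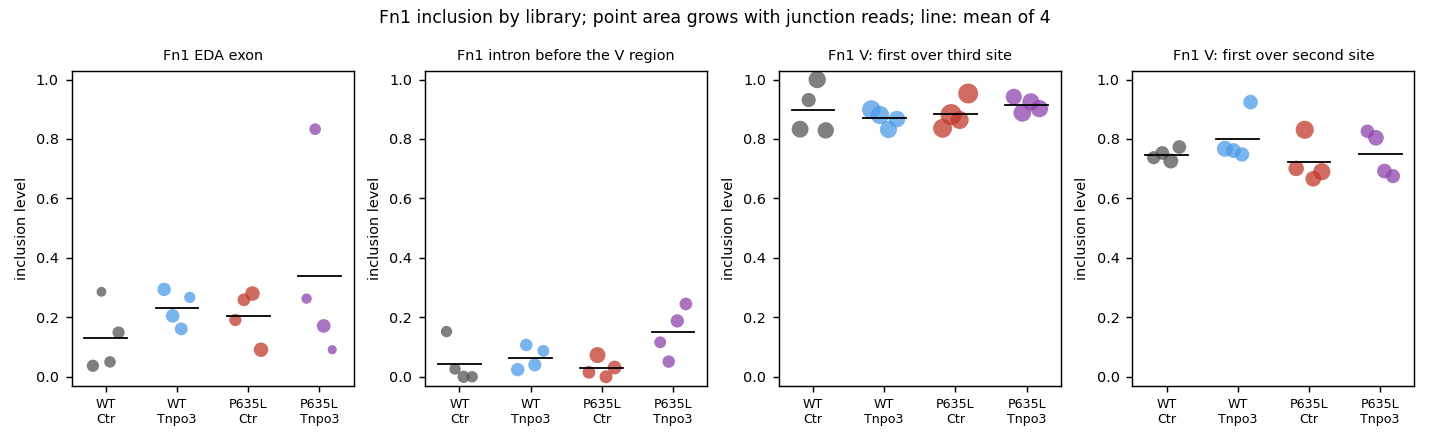
Inclusion level (vertical axis, 0 to 1) of 4 Fn1 events in the 4 groups; each point is 1 library, its area grows with the junction reads behind it, and the line is the mean of 4. The EDA exon has 1 small point at 0.833 in P635L Tnpo3. The level of the first V acceptor against the third, which also counts reads from the second, stays above 0.8 in every library.

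The V region is chosen by 3 acceptors: the first keeps 360 bases, the second leaves out 75 of them, and the third leaves out all. The inclusion level of the first against the third was 0.898 ± 0.083 in WT Ctr, 0.870 ± 0.028 in WT Tnpo3, 0.884 ± 0.05 in P635L Ctr and 0.914 ± 0.024 in P635L Tnpo3 (SD, n = 4). Against the second it was 0.747 ± 0.02, 0.800 ± 0.083, 0.722 ± 0.074 and 0.749 ± 0.077 in the same order. The level against the third also counts reads across the third site, which transcripts of the second acceptor give too. It is therefore not the share of the first acceptor alone. Each group overlapped WT Ctr, and the rMATS FDR was 1.0 for each difference from WT Ctr in the authors' deposited tables. The same choices are also listed as retained introns and as a cassette of 106 bases, which share these reads. The Fn1 exons of 107 and 165 bases farther 3′ were included at 0.978 or more on average in every group.

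Loxl3 and Eln had the other events with enough reads. An acceptor choice at the second exon of Loxl3 (longer form 6:83012436-83012778) stood at 0.9, 1.0, 1.0 and 1.0 in WT Ctr and at 0.867, 0.879, 1.0 and 0.932 in P635L Ctr. Its FDR was 0.0128 in the authors' deposited table, with an inclusion difference of -0.055 that is under the minimum of 0.1. The shorter form had 1 read beside 39 inclusion reads in WT Ctr, and 12 beside 208 in P635L Ctr. A pair of mutually exclusive Eln exons had an inclusion of 0.709 ± 0.056 in WT Ctr, 0.735 ± 0.041 in P635L Ctr and 0.70 ± 0.074 in P635L Tnpo3 (FDR 0.833 and 1.0), although the table lists their coordinates incompletely and which of the pair is counted as included is not given in the sources used here. The other Eln exons tested were included at 0.981 or more on average. None of 20 member events reached p under 0.05 between P635L Tnpo3 and P635L Ctr by the two-sided exact permutation test, whose smallest possible p is 0.0286.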

How the data were processed

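RNA of 16 left ventricles was sequenced in 4 groups of 4 mice. The submitters' processing notes name STAR 2.7.9a, featureCounts 2.0.6, DESeq2 and GRCm39. The deposited table of genes gives whole-number read counts that were not normalized (a featureCounts output, per the file headers). The deposited DESeq2 tables give log2 fold changes, p-values and a Wald statistic (score) per the file headers, of which the adjusted p-values were used. The deposited rMATS tables give junction reads and inclusion levels per the file headers.

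Counts were tested with edgeR 4.0.16 in R 4.3.3 (quasi-likelihood F test, TMM factors, filterByExpr, 1 model over 16 libraries, 12 residual degrees of freedom), with adjustment over 18662 genes. CPM use TMM factors, and RPKM divide by the summed annotated exons. On simulated data with 200 changed genes per run (P635L Ctr against WT Ctr, 18320 to 18368 genes), 55.3% of 2-fold and 78% of 4-fold changes were recovered and 6.63% of calls were false. The members, lists, markers and motifs were chosen with earlier results of these data known. All 8 members are described; of each list, up to 4 called genes with the largest change are named, and for the Tnpo3 comparison all called genes, chosen after their values were seen, as were the named markers, Bmp1 and the Loxl3 and Eln events. The 3 genes most like each called member are named, except 1 that is not reported here. DESeq2 1.42.0, other scalings, filters and left-out libraries were tried as alternatives.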

Additional observations from a re-analysis of the deposited data

Results flagged for a closer look

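Loxl4 in WT Tnpo3 4 read 2.61 CPM, far from the other 3 WT Tnpo3 libraries at 0.637, 0.782 and 0.783 CPM. It was the only such value among the 32 sets of 4 libraries checked for the members, and chance marks about 1 set in 20. In the same library ENSMUSG00000119584 held 22.65% of the counts and Xist exceeded the Y-linked genes. The part of either in the Loxl4 level was not tested.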

How the results depend on the processing

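Scaling (median ratio, upper quartile) moved the median of all genes by less than 0.1 on the log2 scale. Of 840 values of single members under the alternatives, 783 were counted as the same. These kept their side of the threshold, and a change of sign between values that were both not called was counted as the same. For members changed in P635L Ctr against WT Ctr (5), the count was 3 with no filter on low counts and 3 without the libraries dominated by 1 gene. In the latter fit Lox, Loxl3 and Eln were lost and Loxl4 was gained, so of the 5 only Cilp and Loxl1 stayed. The count was 3 to 6 as each library was left out (3 without WT Ctr 2 or P635L Ctr 2). For P635L Tnpo3 against P635L Ctr (0), DESeq2 gave 1 (Cilp), a fit of only the groups compared gave 1 (Loxl4), and leaving out libraries gave 0 to 0. For P635L Tnpo3 against WT Ctr (0), DESeq2 gave 2, and leaving out each library 0 to 2 (2 without WT Ctr 1, 1 without P635L Tnpo3 1 or 3). For P635L Tnpo3 against WT Tnpo3 (2), the count was 0 with no filter, 1 with only the groups compared, 0 without the libraries dominated by 1 gene, 0 without those of high Xist, and 0 to 1 as each library was left out. With the replicate number as a block, P635L Tnpo3 against WT Tnpo3 gave 0 members in place of 2, and P635L Ctr against WT Ctr gave 5, of which 4 were among the 5 of the fit without the block (Eln was lost, adjusted p 0.0571, and Loxl2 gained, 0.0144, edgeR). It changed no other count of members. Deviations from the group means correlated above 0.1 in 6 of 24 same-numbered pairs of libraries, 3 of them among the 4 pairs of WT Ctr and WT Tnpo3 (0.096, 0.108, 0.276 and 0.552). In no 2 groups did every pair pass 0.1, so the numbers were not taken as pairs, and a shared batch was not tested. The cause of these changes was not tested.

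Counts over all genes moved too. For P635L Tnpo3 against P635L Ctr they were 724 as reported, 629 to 2846 in other settings and 282 to 591 as each library was left out. For P635L Tnpo3 against WT Tnpo3 they were 694, 386 to 1887 and 280 to 1220. For P635L Tnpo3 against WT Ctr they were 573, 319 to 1100 and 282 to 687, and for the interaction 94, 54 to 410 and 52 to 221. Member events in P635L Ctr went from 0 to 1 (Loxl3) at an inclusion difference of at least 0.05, and in P635L Tnpo3 from 1 to 0 at a difference of at least 0.2. Relative to the 8 fibroblast markers, an alternative chosen after seeing the data, the sign turned for Loxl1 (-0.09), Loxl2 (-0.46), Loxl4 (-0.09), Eln (-0.07) and Fn1 (-1.04) in P635L Ctr against WT Ctr, and for Fn1 (0.71), Loxl1 (0.25), Loxl2 (0.33), Loxl3 (0.44) and Loxl4 (0.04) in P635L Tnpo3 against P635L Ctr. The marker mean includes Mfap4, the marker with a far larger change, and whether these signs hold without Mfap4 was not tested. Junction reads per WT Ctr library were few for several events, at 10 for the Loxl3 acceptor and 21.25 for EDA, and Cilp and Loxl4 had no event with enough reads.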
